A study of Mus musculus with 6 samples.

Results

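The genes described here encode ubiquitin peptidases (Usp and Uch symbols), ubiquitin conjugating enzymes (Ube2) and HECT ubiquitin ligases of the Ube3 series, measured in mouse hippocampus on 6 Affymetrix Mouse Genome 430 2.0 arrays. The rule that picks them reads gene symbols and no measured value. A probeset, the set of short probes that reports one transcript, was taken where the platform annotation gives it 1 symbol beginning with Usp and a digit, or with Uch, Ube2 or Ube3. The rule found 90 of 18193 genes, and 223 of the 34945 probesets with 1 symbol. There were 51 Usp, 3 Uch, 33 Ube2 and 3 Ube3 genes. Not all of these symbols stand for an enzyme of the pathway. Usp6nl encodes a GTPase-activating protein, Usp46os2 an antisense RNA and Ube2d-ps a pseudogene. Each gene was described at the probeset with the highest mean signal over the 6 arrays, called its brightest probeset, with its other probesets (dimmer probesets) beside it.

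Tg mice carry an added Glud1 gene, which encodes mitochondrial glutamate dehydrogenase, under the promoter of neuron-specific enolase, so the transgene is driven in neurons only. The 3 Tg mice and the 3 wild-type (wt) mice were male, 9 months old, untreated and of C57BL/6 background, with 1 array per mouse. The study asked which hippocampal genes differ in animals that release moderately more glutamate at synapses throughout life.

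Ubiquitin is a small protein that is attached to other proteins in a relay. An activating enzyme (E1) passes it to a conjugating enzyme (E2), and a ligase (E3) directs its transfer to a substrate. Chains of ubiquitin mark proteins for degradation by the proteasome or change their partners and location, and ubiquitin peptidases trim or remove them. In neurons this traffic controls the turnover of synaptic proteins and receptors.

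The values were MAS5 signals on a linear scale, and differences are given as log2 fold changes (Tg minus wt) on the log2(signal + 16) scale, with the standard error (SE) and p of limma, a linear model fitted across all kept probesets. The adjusted p was corrected by Benjamini-Hochberg over the 31076 probesets kept by a filter on mean signal over all 6 arrays. The number of arrays limits the precision. Median signal of the kept probesets was 309.6 to 318.9 on the Tg arrays and 297.3 to 305.4 on the wt arrays. The ratio of the 3' to the 5' Actb control was 1.66 ± 0.0271 (SD, n = 3) in Tg and 1.84 ± 0.125 in wt, and the signal of the 18S ribosomal RNA control was 975.5 to 3313 in Tg and 2286 to 13960 in wt. Markers of hippocampal neurons were present, among them Prox1 in granule cells and Wfs1 in CA1 pyramidal cells. The 11 markers of granule cells were all higher on average in Tg, with a summed signal of 19840 to 22100 in Tg and 15820 to 20300 in wt. Of 7 measured markers of the neighbouring retrohippocampal cortex 2 were positive (Rorb 0.42, Lmo3 0.02), and the median was -0.47. Their summed signal was 8468 to 9660 in Tg and 10300 to 11270 in wt. Astrocyte markers were lower in 5 of 6 cases, with a median of -0.14. Of 4 measured markers of striatum 1 was positive, and the median was -0.67. Drd1 read 76.2 to 110.9 in Tg and 184.2 to 566.3 in wt, and Drd2 read 29.8 to 65.8 and 106.9 to 130.5, in both cases with Tg below wt. Ttr, the defining marker of the choroid plexus, was at 3915 on Tg 3 and at 40080 to 57638 on the other arrays. In all 6 measured markers of this tissue Tg 2 was highest and Tg 3 lowest. Folr1, for example, read 293.1, 1754.3 and 96.7 on Tg 1, 2 and 3 and 629.4 to 807.3 in wt. These values move with the groups or with single arrays, and their part in the results that follow was not tested. Fewer cells of a type and less RNA per cell cannot be told apart in such bulk samples. The targeted gene was not higher in Tg. The brightest Glud1 probeset read 5116, 5596 and 5561 in Tg and 6383, 5647 and 5998 in wt, all Tg signals lying below all wt signals, and the other read 4640, 5256 and 5394 in Tg and 5729, 5031 and 5470 in wt. Neither probeset shows the higher level that the label implies, and whether they read the transgene's transcript is not known from the sources used here. Tg and wt therefore stand for the arrays so labelled, and each direction given here rests on those labels.

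RefSeq (GRCm38.p6) gave a start site for 61 of the 78 members with a kept brightest probeset. Their promoters, read as the 250 bases before the first listed start, were rich in CG pairs, with a median of 24 against 15 in the promoters of 11173 kept genes on the array and 6 in all 27025 promoters. A GC box (GGGCGG, searched on both strands) was found in 45 of the 61, or 73.8%, against 57.1% of the kept genes and 32.9% of all promoters. A TATA box (TATAAA, both strands) was found in 4.92% of the members, 6.91% of the kept genes and 13.0% of all promoters. CCAAT, also on both strands, was found in 11 of the 61 members, in 35.8% of the kept genes and in 34.5% of all promoters. The shares for TGACGTCA, the cAMP response element, were 1.64%, 2.61% and 1.62%, and those for the E-box CACGTG were 9.84%, 8.12% and 6.05%. A match of letters is a description and does not show that a factor binds. The promoters below are those of Uchl1, the member with the highest signal, of Usp34, the one member with p under 0.05 and a higher signal in Tg, and of Usp7, which had p under 0.05 and a lower signal in Tg. Capitals mark GC boxes on either strand and, once in Usp7, a CCAAT box on the opposite strand.
Uchl1 (chr5:66675871-66676120, plus strand): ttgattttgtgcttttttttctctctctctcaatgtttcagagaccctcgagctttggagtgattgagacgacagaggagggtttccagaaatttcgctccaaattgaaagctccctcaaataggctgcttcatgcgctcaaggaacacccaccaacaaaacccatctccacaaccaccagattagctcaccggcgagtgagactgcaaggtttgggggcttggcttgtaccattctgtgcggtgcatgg
Usp34 (chr11:23306645-23306894, plus strand): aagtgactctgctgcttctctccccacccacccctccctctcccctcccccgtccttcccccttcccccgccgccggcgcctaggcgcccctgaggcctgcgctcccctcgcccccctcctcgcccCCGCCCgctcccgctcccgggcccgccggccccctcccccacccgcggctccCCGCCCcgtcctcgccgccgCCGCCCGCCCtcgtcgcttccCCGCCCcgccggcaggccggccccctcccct
Usp7 (chr16:8738343-8738592, minus strand): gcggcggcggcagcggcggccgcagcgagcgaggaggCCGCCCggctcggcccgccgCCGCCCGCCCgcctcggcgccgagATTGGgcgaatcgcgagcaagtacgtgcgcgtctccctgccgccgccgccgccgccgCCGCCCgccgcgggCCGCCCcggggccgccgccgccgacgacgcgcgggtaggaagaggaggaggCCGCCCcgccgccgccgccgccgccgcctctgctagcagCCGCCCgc
The Uchl1 window held 7 CG pairs and none of the 5 motifs, whereas that of Usp34 held 30 CG pairs and 5 GC boxes and that of Usp7 held 55 CG pairs and 7 GC boxes, of which neighbouring ones overlap.

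At their brightest probesets the enzymes of ubiquitin transfer and removal differed little between Tg and wt. Of the 90 genes, 78 had a kept brightest probeset, 46 of them Usp, 2 Uch, 27 Ube2 and 3 Ube3. The log2 fold change was positive in 46 of 78 (59.0%), with a median of 0.0189, and in 44.1% of all 13851 genes, with a median of -0.0309. Usp34 alone was higher in Tg with an unadjusted p under 0.05, a share of 1.28% beside 2.9% of all genes. Ube2d2a and Usp7 were lower in Tg, a share of 2.56% beside 4.97% of all genes. The 3 Tg signals lay above the 3 wt signals in 4 members (background 5.21%) and below them in 6 (background 8.82%). No member passed an adjusted p of 0.05, and neither did any of the 31076 probesets (0.0%). The smallest adjusted p of a brightest probeset was 0.283, for Ube2d2a. Usp7 had no p under 0.05 with quantile normalization, with a replicate block, without limma's trend, or without Tg 1, Tg 3, wt 1 or wt 3, and Usp34 had none without the trend or without wt 1. The counts moved with single arrays. Without wt 1 there were 0 members higher and 1 lower, without wt 2 there were 3 and 3, and without Tg 3 or without wt 3 there were 2 and 1. All genes had 3.36% higher and 5.72% lower without wt 1, and 2.78% and 3.54% without wt 2. They had 2.1% and 4.04% without Tg 3, and 2.96% and 4.27% without wt 3.

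**Figure D1:**
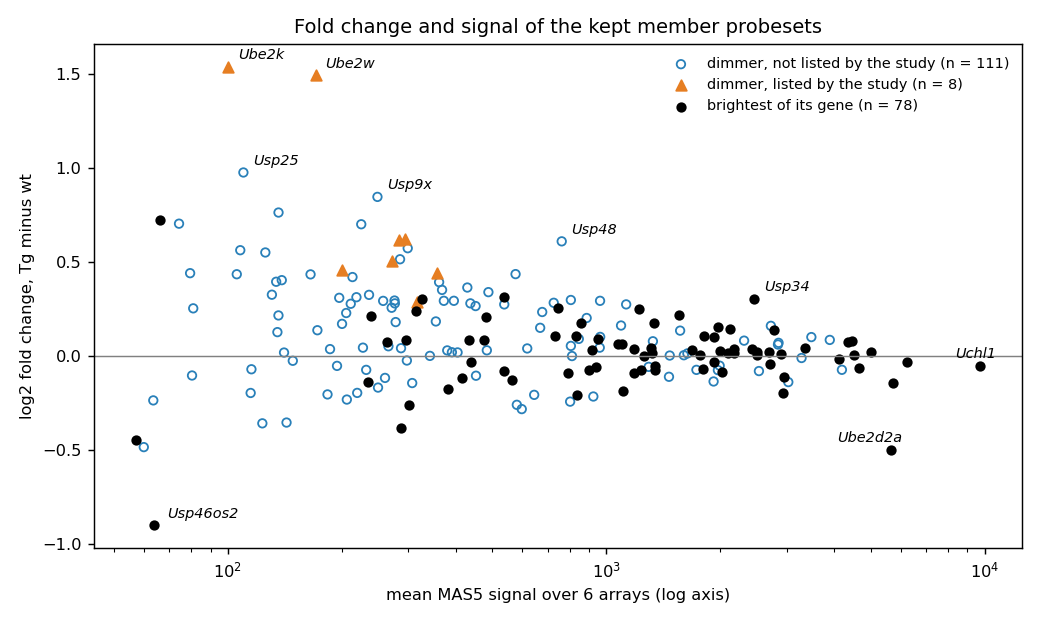
Log2 fold change (Tg minus wt, vertical axis) against mean MAS5 signal over 6 arrays (horizontal log axis) for the 197 kept probesets of the members. Filled points are the 78 brightest probesets, open points the 111 dimmer probesets that the study does not list as changed and triangles the 8 that it lists. The brightest probesets run from -0.90 to 0.73, with a median of 0.0189. Of these 78, 46 lie above 0, as do 86 of the 119 dimmer ones.

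Ubiquitin-specific peptidases make up the larger class of deubiquitylating enzymes. Usp34, a large peptidase that acts on axin in Wnt signalling, had the smallest p among the higher members. Its brightest probeset read 2618, 2727 and 2790 on Tg 1, 2 and 3 and 1872, 2399 and 2349 on wt 1, 2 and 3. All Tg signals lay above all wt signals, and wt 1 was the lowest. The log2 fold change was 0.30 (SE 0.11, adjusted p = 0.391). Its dimmer probesets gave 0.20 and -0.02.

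Usp7, which deubiquitylates Mdm2 and the tumour suppressor p53, read 2634, 2846 and 2701 in Tg and 3235, 2971 and 3172 in wt at its brightest probeset. The Tg signals lay below the wt signals without overlap, at -0.20 on the log2 scale (SE 0.086, adjusted p = 0.492). Usp2, of the same role, was at -0.07. Among the 5 members of this group 2 were positive and 3 negative.

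Usp1, Usp12 and Usp46 need the partner protein Wdr48 for activity, and Usp46 is known from mouse behaviour. All 3 had a positive log2 fold change, with a median of 0.22, except that Usp46 was at -0.0561 when arrays were centred, and none had p under 0.05. Usp1 read 1552, 1916 and 1558 in Tg and 1483, 1322 and 1495 in wt, so that the groups did not overlap (0.22, SE 0.11, adjusted p = 0.575). Usp46 read 2633 to 3238 in Tg and 2744 to 3091 in wt, which overlap fully (0.01). The 5 dimmer probesets of these genes were positive as well, although that of Usp46, at 0.00438, was negative under the same centring.

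Peptidases of histones at chromatin were split, with 3 of 6 positive and a median of 0.00428. Usp16, which acts on histone H2A, read 656.7, 623 and 506.5 in Tg and 417.5, 525.9 and 481.6 in wt (0.31, SE 0.16, adjusted p = 0.553). Usp22, the peptidase of the SAGA complex, read 5996, 5474 and 4907 in Tg and 6165, 5878 and 5987 in wt (-0.14, SE 0.087, adjusted p = 0.63). Usp21, another histone H2A peptidase, was at -0.09.

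The 2 proteasome-bound peptidases differed by less than 1 SE. Usp14, whose loss causes ataxia in mice, had 2504 ± 35.3 in Tg and 2494 ± 105 in wt (SD, n = 3), which differ by 0.01 on the log2 scale (SE 0.086). Uchl5, the other peptidase of the proteasome, had 1707 ± 33 in Tg and 1671 ± 68.2 in wt, a log2 fold change of 0.03 (SE 0.094).

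Peptidases of endosomes and membrane traffic were all 4 positive but close to 0, between 0.00697 and 0.0653, and all 4 were negative when arrays were centred on their medians. Usp32 read 3975 to 4864 in Tg and 4307 to 4835 in wt, and Usp33 was at 0.02. Usp30, which sits on the outer mitochondrial membrane and opposes Parkin, was at 0.09, and Usp19, which has a form anchored in the endoplasmic reticulum, at 0.17. Usp9x, an X-linked peptidase of developing neurons, was at 0.15 and its relative Usp24 at 0.09. None of these 6 had p under 0.05.

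In the family of Usp4, Usp11 and Usp15, Usp4 read 764.6, 787.6 and 766.9 in Tg and 964, 850.7 and 878.3 in wt, without overlap (-0.21, SE 0.12, adjusted p = 0.598). Usp11 was at 0.02. The 3 measured members of the role group of Usp39 and Usp54 were all negative, between -0.116 and -0.0524. Usp39 is a splicing factor. Usp18, which removes the ubiquitin-like modifier ISG15, read 31.3 to 55.4 in Tg and 26.0 to 121.2 in wt and was the one brightest probeset among the members that the study lists as lower (-0.44, SE 0.53, adjusted p = 0.821). Its wt signals span the Tg signals.

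Of the remaining Usp genes, Usp48, a nuclear peptidase, was at 0.25 (SE 0.13, adjusted p = 0.577) and Usp37, which acts in the cell cycle, at -0.38 (SE 0.21, adjusted p = 0.588). Usp45 was at 0.04. The antisense RNA Usp46os2 had the lowest log2 fold change, -0.90 (SE 0.51, adjusted p = 0.602), from signals of 56.9, 63.4 and 10.5 in Tg and 82.9, 96.1 and 73.9 in wt, which do not overlap and are near the filter's smallest mean signal of 48.8. Usp49 and Ube3b were the other members whose Tg signals lay above all wt signals, and Usp13 and Ube3c had theirs below. Usp49 and Usp13 were named after their values were seen.

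**Figure D2:**
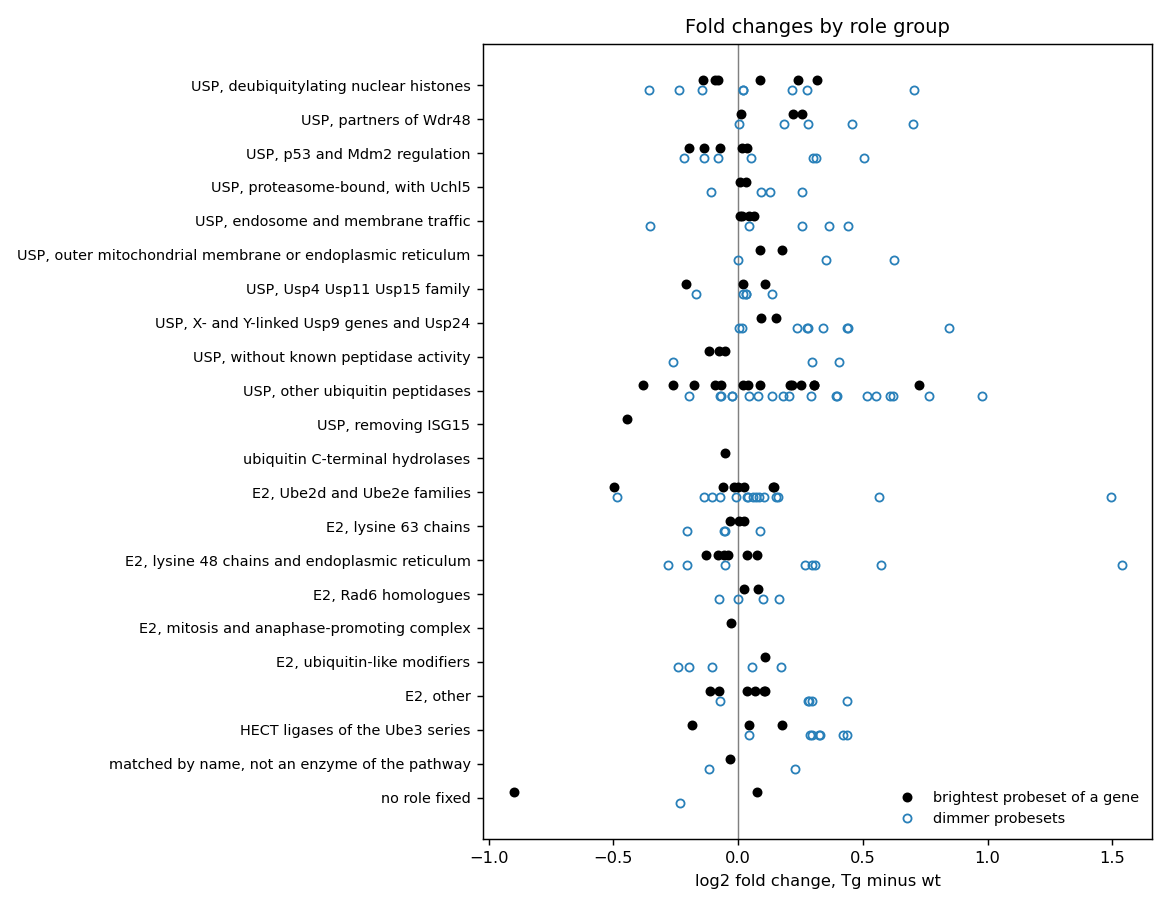
Log2 fold change (Tg minus wt, horizontal axis) of the kept member probesets in each role group (vertical axis). Filled points are the brightest probeset of each gene and open points its dimmer probesets. All 9 dimmer probesets of Usp9x and Usp24 and all 7 of the Ube3 genes lie above 0, of which 2 of Usp9x and 1 of Ube3c fall below 0 when arrays are centred on their medians.

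Ubiquitin C-terminal hydrolases were represented by Uchl1, one of the abundant proteins of neurons. Its signals were 9853, 9194 and 9610 in Tg and 9753, 10405 and 9562 in wt. The groups overlapped, and the log2 fold change was -0.05 (SE 0.073, adjusted p = 0.848). Uchl4 read 2.2 to 39.2 over the 6 arrays and was not kept.

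Among the conjugating enzymes, Ube2d2a had the smallest p of all 78 members. It belongs to the Ube2d family of broadly acting E2 enzymes. The brightest probeset read 5839, 3677 and 4622 in Tg and 6059, 6192 and 7469 in wt. The Tg signals lay below the wt signals, with Tg 1 close to wt 1 (-0.50, SE 0.14, adjusted p = 0.283). The other 4 kept probesets of Ube2d2a were at -0.07, -0.14, 0.15 and -0.10, each with overlapping groups. Ube2d genes are close paralogues, and a probeset may read more than one of them. Ube2d3 read 4866 to 5252 in Tg and 4744 to 5130 in wt (0.02).

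The E2 enzymes of signalling and repair chains, Ube2n with its partners Ube2v1 and Ube2v2, were between -0.0319 and 0.0221. Ube2v1 read 5558 to 6984 in Tg and 5753 to 6894 in wt, and Ube2n was at 0.02. The E2 enzymes of degradative chains and of the endoplasmic reticulum had 2 of 6 positive, with a median of -0.0484. Ube2k was at 0.07 and Ube2g1 at -0.04. The Rad6 homologues Ube2a and Ube2b were at 0.03 and 0.08, Ube2s, an E2 of the anaphase-promoting complex, at -0.03 and Ube2f, an E2 of Nedd8, at 0.11. Ube2e3 was at -0.06, Ube2h at 0.04 and Ube2ql1 at -0.11. Apart from Ube2d2a, the 27 brightest Ube2 probesets had no p under 0.05 and none of them separated the groups.

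None of the 3 Ube3 ligases had p under 0.05 at the brightest probeset. Ube3a, the ligase lost in Angelman syndrome, read 3160, 3444 and 3582 in Tg and 3424, 3136 and 3303 in wt at its brightest probeset (0.05, SE 0.087, adjusted p = 0.894). Ube3b had 1419 ± 45.6 in Tg and 1261 ± 155 in wt, with the Tg signals above the wt signals (0.18, SE 0.12, adjusted p = 0.652). Ube3c had 1038 ± 118 in Tg and 1180 ± 95.6 in wt, with the Tg signals below (-0.19, SE 0.12, adjusted p = 0.656). Its next probeset was at 0.04 with overlapping groups.

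The dimmer probesets leaned to higher signals in Tg. Kept dimmer probesets numbered 119 in 57 of the genes, and 86 of them (72.3%) had a positive log2 fold change, with a median of 0.135. Those of all genes leaned the same way, with 59.6% positive and a median of 0.0688 over 11993 probesets. An unadjusted p under 0.05 with a higher signal in Tg was found in 14 of 119 (11.8%), beside 7.73% of the dimmer probesets of all genes. These 14 belonged to Ube2w, Usp48, Usp47, Usp9x, Ube2k, Usp31, Ube2h, Usp25, Usp22, Ube2g2, Usp12, Usp7, Usp19 and Usp20. None of the 119 was lower with p under 0.05, beside 2.84% of all. The Tg signals lay above the wt signals in 17 (14.3%; background 10.6%) and below them in 5 (4.2%; background 4.92%). None passed the adjusted p, the smallest being 0.235. The members' median was 0.069 when each array was centred on its median, beside 0.00258 for all genes, and 0.0481 without both wt 1 and wt 2, beside 0.0337.

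Part of this lean rests on probesets that the study had picked from the same 6 mice. It lists 8 dimmer member probesets as higher in Tg, and 5 of the 14 are among them. Without its listed probesets, 9 of 111 (8.11%) were higher with p under 0.05, and the median was 0.0913. The dimmer probesets of all genes without the listed ones had 5.92% higher and 2.55% lower, with a median of 0.0609. Without wt 2, 9 of the 119 were higher, beside 5.38% of those of all genes. Without Tg 1, 2 were lower, beside 2.66% of those of all genes. When each array was centred on its median, 8 were higher and 4 lower, beside 5.23% and 4.84% of those of all genes. The probesets of one gene share their RNA and are not replicates.

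**Figure D3:**
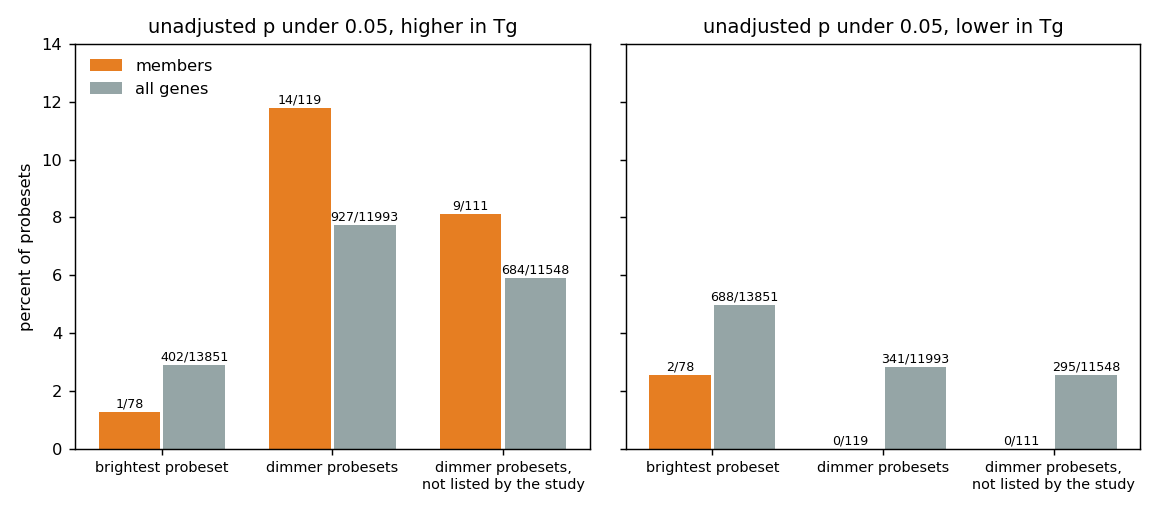
Percent of probesets (vertical axis, from 0) with an unadjusted p under 0.05 and a higher (left) or lower (right) signal in Tg, for the members and for all genes. Numbers above the bars are the counts and totals. The members' share is above that of all genes only among dimmer probesets that are higher in Tg, 11.8% against 7.73%, and 8.11% against 5.92% without those the study lists.

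The largest differences came from dim probesets. Ube2w, an E2 that modifies the amino terminus of its substrates, read 235.8, 190.3 and 341.7 in Tg and 107.5, 36.3 and 112.8 in wt at the probeset the study lists. All Tg signals lay above all wt signals, and the difference was 1.49 on the log2 scale (SE 0.37, adjusted p = 0.235). At its brightest probeset Ube2w had 2235 ± 168 in Tg and 2022 ± 143 in wt (SD, n = 3), where the difference was 0.14 on the log2 scale (SE 0.100, adjusted p = 0.673). Its other kept probesets were at 0.04 (SE 0.16) and, with the opposite sign, at -0.48 (SE 0.44, adjusted p = 0.751).

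Ube2k, an E2 that builds degradative chains, read 163, 137.1 and 141.2 in Tg and 110.3, 8.4 and 41 in wt at its listed probeset. The groups did not overlap, and wt 2 was far below the others (1.54, SE 0.53, adjusted p = 0.368). At the brightest probeset Ube2k read 4351, 4211 and 4867 in Tg and 4549, 4181 and 4020 in wt, which overlap (0.07, SE 0.089, adjusted p = 0.823). A further Ube2k probeset had the opposite sign, at -0.28 (SE 0.15, adjusted p = 0.568).

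Usp48 was higher at each of its probesets on average. The next brightest one, which the study does not list, read 804.5, 915 and 1051 in Tg and 714.2, 566.6 and 522.3 in wt, without overlap (0.61, SE 0.15, adjusted p = 0.235). The dimmest gave 0.52 (SE 0.28, adjusted p = 0.589). The brightest was at 0.25, as given above.

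Usp47, a peptidase of base excision repair, read 331.7, 333.5 and 374.3 in Tg and 253.8, 217.6 and 191.3 in wt at its listed probeset, without overlap (0.62, SE 0.19, adjusted p = 0.312). At the brightest it had 2116 ± 104 in Tg and 2090 ± 97.4 in wt, a log2 fold change of 0.02 (SE 0.092). Usp31 read 201.1, 190.3 and 136.5 in Tg and 99.6, 105.2 and 83.6 in wt at its dimmest kept probeset (0.76, SE 0.28, adjusted p = 0.411), and was at -0.09 at its brightest. Usp25 was at 0.98 (SE 0.39, adjusted p = 0.451) at its dimmer probeset and at 0.30 (SE 0.27, adjusted p = 0.748) at its brightest. For these 3 genes the difference was seen at a dim probeset and was not seen beyond the SE, or was about as large as the SE, at the brightest.

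Ube2g2, an E2 of degradation at the endoplasmic reticulum, was at 0.57 (SE 0.24, adjusted p = 0.471) at its dimmer probeset and -0.06 at its brightest. Ube2h had 1061 ± 16.1 in Tg and 864.4 ± 79.3 in wt at one of its dimmer probesets (0.29, SE 0.12, adjusted p = 0.451). Usp22 changed sign between its probesets. Its dimmer one read 1311, 1194 and 1205 in Tg and 967.1, 996.7 and 1096 in wt, without overlap (0.27, SE 0.11, adjusted p = 0.453), against -0.14 at the brightest.

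**Figure D4:**
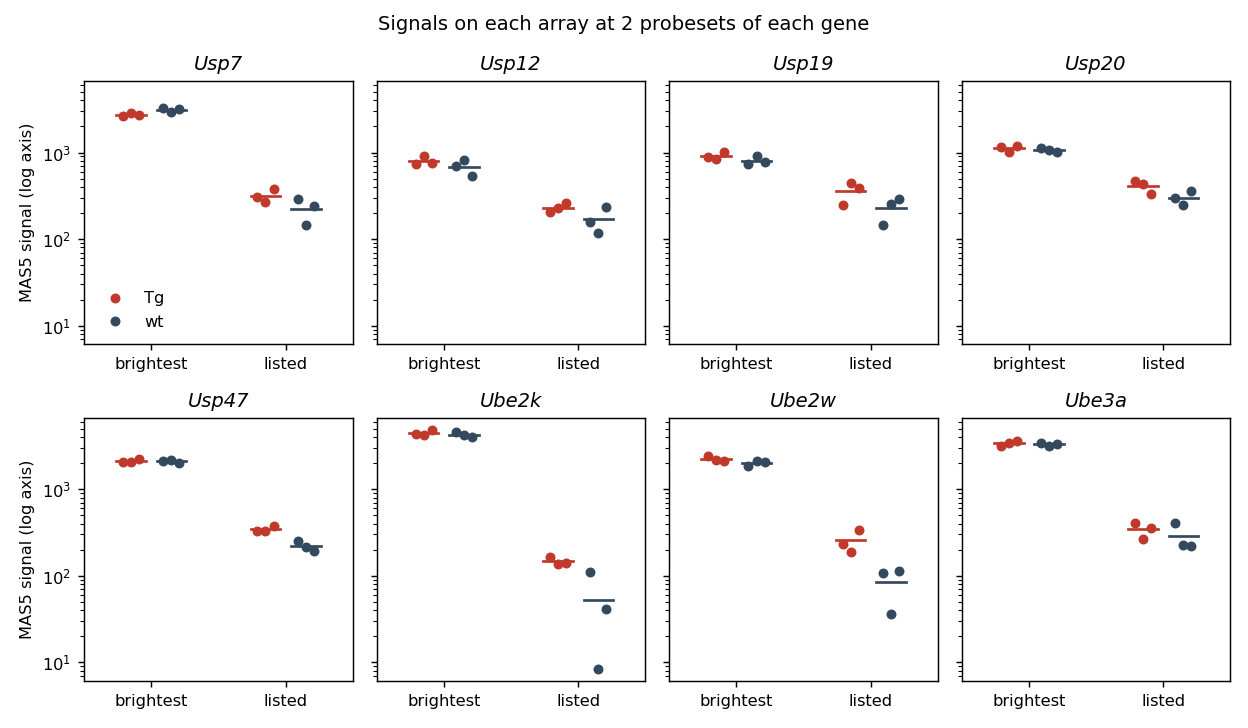
MAS5 signal on each array (vertical log axis) at the brightest probeset and at the probeset listed by the study for 8 genes. Points are single mice, red for Tg and dark blue for wt, and lines are group means. At the brightest probesets the groups overlap, except in Usp7, where Tg lies below wt, and at the listed ones they are apart without overlap in Usp47, Ube2k and Ube2w.

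The study names 8 members in its text and lists Ube2w beside them, and the values of these 9 genes differed between their probesets. Usp19 had 359.2 ± 100 in Tg and 229.6 ± 75.2 in wt at its listed probeset (0.63, SE 0.28, adjusted p = 0.499), with overlapping groups, and 0.17 (SE 0.13, adjusted p = 0.699) at its brightest. Usp20, a peptidase of receptor traffic, had 414.4 ± 73.5 in Tg and 301.4 ± 55.9 in wt at its listed probeset (0.44, SE 0.20, adjusted p = 0.513), also overlapping, and 0.07 (SE 0.11) at its brightest. Usp12 was at 0.46 (SE 0.26, adjusted p = 0.611) at the listed probeset, 0.70 (SE 0.30, adjusted p = 0.479) at another and 0.25 (SE 0.16, adjusted p = 0.644) at the brightest. The listed Ube3a probeset read 411.2, 264.8 and 358.2 in Tg and 409.3, 227.9 and 221.2 in wt, where the Tg signals fell within or near the range of the wt signals (0.29, SE 0.25, adjusted p = 0.742). No listed probeset is annotated to Usp32 here, and its brightest was at 0.01. Thus 5 of the 8 listed probesets had p under 0.05 in this fit (62.5%), beside 68.1% of the 357 dimmer probesets of all genes that the study lists as higher, and 0 of the 9 genes had a higher signal with p under 0.05 at the brightest. The difference between a brightest and a listed probeset was not tested.

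The probesets of Usp7 disagreed in sign. Its 3 brightest probesets were at -0.20, -0.08 and -0.14 and its 4 dimmest at 0.30, 0.50, 0.05 and 0.31. One of these read 824.1, 919.4 and 924.9 in Tg and 739.1, 790.2 and 637.1 in wt, without overlap (0.30, SE 0.13, adjusted p = 0.489), which is opposite in sign to the brightest. This probeset and the one of Usp12 at 0.70 were named after their values were seen. The listed Usp7 probeset read 302.8, 268.5 and 380.5 in Tg and 289, 146.4 and 238.3 in wt, with overlap (0.50, SE 0.25, adjusted p = 0.553).

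Usp9x had 7 kept probesets, all positive, from 0.00278 to 0.85, of which 2 were negative when arrays were centred on their medians. The largest was at a dimmer one, with 334.6, 265.8 and 354 in Tg and 110.7, 160.8 and 264.4 in wt (SE 0.28, adjusted p = 0.350). Its lowest Tg signal lay just above its highest wt signal. The 6 kept probesets of Ube3a were positive too, apart from the brightest at -0.021 when arrays were centred, with the 5 dimmer ones between 0.29 and 0.43 and none of them with p under 0.05. By contrast, the 7 probesets of Ube2d3 stayed between -0.01 and 0.16, and Ube2f had 3 positive and 3 negative.

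**Figure D5:**
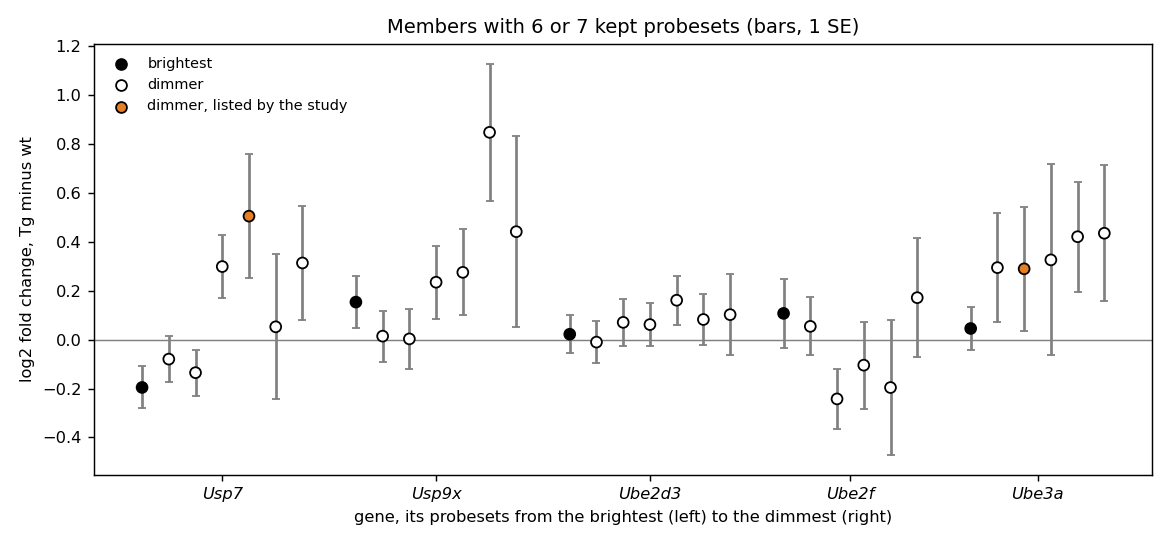
Log2 fold change (Tg minus wt, vertical axis) of each kept probeset of the 5 members that have 6 or 7, in order of mean signal within each gene (horizontal axis), with bars of 1 SE. The Usp7 probesets at the bright end of its order lie below 0 and those at the dim end above. All probesets of Usp9x and Ube3a lie above 0. Of these, 2 of Usp9x and 1 of Ube3a fall below 0 when arrays are centred on their medians.

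Within genes, the median of the dimmer probesets exceeded the brightest in 40 of 57 members (70.2%), by a median of 0.138. Over all 6780 genes with both kinds it did so in 64% of genes, by a median of 0.0988. By signal, 13.0% of the 23 dimmer member probesets with a mean under 150 were higher with p under 0.05, beside 4.06% of those of all genes. From 150 to 400 the share was 15.2% of 46, beside 8.88%. From 400 to 1000 it was 11.1% of 27, beside 11.5%, and at 1000 or more 4.35% of 23, beside 8.32%. The members' share was thus above that of all genes under a mean signal of 400 and close to it from 400 to 1000. At 1000 or more the members' share was below and rested on 1 probeset. Probesets that the study lists as higher from the same mice are included in these shares. All 8 of the members' listed ones had a mean signal under 400, from 100.17 to 357.93, and 5 of them had p under 0.05. The members' higher share under 400 therefore rests in part on them, and it was not recounted without them. The members' medians in the same order were 0.254, 0.279, 0.102 and 0.00438, beside 0.103, 0.109, 0.0726 and -0.00636 for all genes. Usp genes had a median of 0.203 over 69 dimmer probesets, of which 10 (14.5%) were higher with p under 0.05, and Ube2 genes 0.0577 over 42, of which 4 (9.52%) were, beside 0.0688 and 7.73% for all genes. These family shares include listed probesets as well, and the difference between both families was not tested.

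On single arrays, the median of the 119 dimmer probesets, each centred on its mean over the 6 arrays, was 0.0528, 0.0778 and 0.110 on Tg 1, 2 and 3 and -0.0343, -0.0928 and 0.0111 on wt 1, 2 and 3. For the dimmer probesets of all genes it was 0.0225, 0.0514 and 0.0728 in Tg and 0.00515, -0.057 and 0.00381 in wt. The Tg arrays lay above the wt arrays in both sets, with wt 2 lowest. At the brightest probesets the members' medians were within -0.0165 and 0.0309 on all arrays, and the groups overlapped.

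Other genes of the pathway were described from fixed lists at their brightest probesets. Of 26 measured deubiquitylating enzymes of other families 13 were positive, with a median of -0.000841, and 1 was higher with p under 0.05, beside the 2.9% of all genes. That one was Otub1, with 980.2 ± 114 in Tg and 675.4 ± 172 in wt (0.55, SE 0.18, adjusted p = 0.346), named after its values were seen. Psmd14, the peptidase of the proteasome lid, was at -0.09 and Bap1, a histone H2A peptidase, at -0.08.

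The 20 other HECT ligases had 14 positive, a median of 0.0196 and none with p under 0.05. Nedd4 was at 0.05 and Huwe1 at 0.01. Their dimmer probesets had 6 of 41 higher with p under 0.05, beside 7.73% of those of all genes, and 3 of 36 without those the study lists, beside 5.92%. Of the 8 cullins 4 were positive, with Cul3 at 0.10 and Cul4b at -0.17. Among activating enzymes 5 of 8 could be measured, none with p under 0.05. Of these 5, 2 were positive (Nae1 0.18, Sae1 0.11), and the median was -0.16. Ubiquitin-like modifiers had 1 of 4 positive (Nedd8 -0.05, Sumo3 -0.07), and the E2 enzymes with other names 2 of 5 (Atg3 -0.11, Ufc1 0.01). The 4 ubiquitin precursor genes had no probeset with 1 symbol.

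The segregase Vcp and its cofactors and shuttles had 3 of 9 positive. Nploc4, a cofactor of Vcp, was at 0.46 (SE 0.14, adjusted p = 0.300), whereas Nsfl1c, another cofactor, read 3949, 4371 and 3658 in Tg and 4863, 5033 and 4668 in wt (-0.28, SE 0.088, adjusted p = 0.320). Ubqln2 was at -0.08 and Sqstm1 at 0.08. The cofactors of one enzyme thus had opposite signs, and neither passed the adjusted p.

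The 12 members that were not kept were Ube2c, Ube2cbp, Ube2d2b, Ube2l6, Ube2t, Ube2u, Uchl4, Usp17la, Usp26, Usp44, Usp50 and Usp9y. None of them read above 92 on any array. Ube2c and Ube2t act in dividing cells. No detection call was used, so a dim signal is not an absence of the transcript.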

How the data were processed

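Hippocampal RNA of 3 Tg and 3 wt mice was hybridised to 1 array each. The authors deposited MAS5 signal intensities per probeset on a linear scale, scaled to the same trimmed mean on each array. MAS5 subtracts mismatch signals, which makes dim probesets noisy. RMA values, from which the study drew its lists, are not used here. Nothing in the labels pairs the mice. Of 45101 probesets, 64 controls were set aside and the 31% with the lowest mean log2(signal + 16) left out, which left 31076. Values as log2(signal + 16) were fitted by limma 3.58.1 in R 4.3.3 (group means, lmFit, eBayes with trend, two-sided) and p-values adjusted by Benjamini-Hochberg over all kept probesets. The fit was tested on simulated data. Probesets with several symbols (9 with a matching one) were left out. Probeset symbols came from GEO's platform annotation, which can be old.

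Named were 8 genes in the study's text and Ube2w from its lists, the 12 members with the smallest p, the 6 with the highest signal, every Uch and Ube3 gene, the 10 dimmer probesets with the smallest p, the 2 with the highest signal per role group and list, and listed pathway genes with p under 0.01. The members and lists were chosen with earlier results of these data known. Alternatives were constants of 1 and 64, quantile normalization, median centring, no filter, the brightest 50%, no trend, Cyber-T, a replicate block, gene means and arrays left out.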

Additional observations from a re-analysis of the deposited data

How the results depend on the processing

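The count of members passing an adjusted p of 0.05 was 0 under every alternative run. Centring each array on its median gave 5 members lower, a members' median of -0.0474, and 8 dimmer probesets higher and 4 lower. All genes then had a median of -0.0972, below that of the members, as in the main setting (-0.0309 for all genes, 0.0189 for the members). Their shares were 1.6% higher and 9.72% lower, beside 2.9% and 4.97% in the main setting. Their dimmer probesets had 5.23% higher and 4.84% lower. limma without the trend gave 0 members higher and 1 lower, beside 2.45% and 3.34% of all genes. It gave 1 dimmer probeset lower, beside 2.5% of those of all genes. When all kept probesets of a gene were averaged, 7 of 78 members were higher and 0 lower, with a median of 0.0617. Of 13854 genes 4.59% were higher and 4.01% lower, with a median of 0.00711. The higher members were Usp25, Usp48, Usp12, Usp36, Usp47, Ube2k and Usp19, and Usp36 was named after its values were seen. The means of Usp12, Usp47, Ube2k and Usp19 include a probeset that the study lists as higher from the same mice. Left out one at a time, arrays gave 0 to 3 members higher, 1 to 3 lower, medians of -0.0112 (without wt 1) to 0.0341, 9 to 18 dimmer probesets higher and 0 to 2 lower. The shares of all genes moved as well, with 2.1% to 3.36% higher and 3.54% to 5.96% lower at the brightest and 4.44% to 9.57% higher and 2.38% to 3.3% lower at dimmer probesets. Without both wt 1 and wt 2, the members' median was 8.08e-05, beside -0.0307 for all genes. Counting only dimmer probesets the study does not list, an alternative chosen after seeing the data, gave 9 higher. The replicate block gave 1 member lower, beside 4.91% of all genes, and changed no other count by over 1.5 times. The replicate numbers share only a number, since the correlations of same-numbered arrays' deviations were -0.0159, 0.00779 and 0.0333. Cyber-T called 65 of the 31076 kept probesets. At so small a share none would be looked for among the members' 197, and none was called. Their smallest adjusted p was 0.0849.

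Of the 63 named probesets of members, 39 kept their sign under all alternatives, and the other 24, of which 23 were brightest probesets with a log2 fold change between -0.111 and 0.107, did not. Centring turned Usp20 to -0.000994, Usp32 to -0.0593, Usp47 to -0.0485, Ube3a to -0.021, Ube2d3 to -0.0444, Uchl5 to -0.0355, Ube2n to -0.0442, Usp33 to -0.0508, Ube2a to -0.0411, Ube2h to -0.0297, Usp46 to -0.0561, Usp11 to -0.0462, Usp14 to -0.0594 and Usp45 to -0.0288. Quantile normalization turned Ube2v1 to 0.0137. Without both wt 1 and wt 2, Usp32 was at -0.0988, the listed Usp12 probeset at -0.0193, Ube2v1 at 0.0899, Ube2d3 at -0.0258, Uchl5 at -0.0279, Ube2n at -0.13, Usp33 at -0.122, Ube2a at -0.0521, Ube2ql1 at 0.0192, Usp46 at -0.0937, Usp11 at -0.0203, Usp45 at -0.0701, Ube2s at 0.00378, Usp39 at 6.04e-05, Usp54 at 0.00835, Ube2f at -0.137 and Usp6nl at 0.171. With single arrays left out, the sign turned for Usp32 (-0.0468 to 0.0983), Ube2n (-0.0419 to 0.098), Usp33 (-0.0299 to 0.0843), Usp46 (-0.07 to 0.0785), Usp14 (-0.0246 to 0.0355), Usp45 (-0.0669 to 0.0989), Ube2s (-0.108 to 0.0256), Usp47 (-0.0216 to 0.0509), Ube2v1 (-0.126 to 0.0379), Ube2d3 (-0.0106 to 0.0471), Ube2a (-0.0205 to 0.0638), Ube2h (-0.025 to 0.0809), Usp54 (-0.133 to 0.00067), Ube2d-ps (-0.0365 to 0.254), Usp11 (-0.0955 to 0.115), Ube2f (-0.0117 to 0.229), Usp6nl (-0.137 to 0.172) and Ube2e3 (-0.17 to 0.00633). Centring takes the same amount from every probeset of an array, and the median of all genes moved with it, from -0.0309 to -0.0972. The cause of the other changes was not tested. Signals near the filter's floor limit what the dimmest of the dimmer probesets can show. Of the 119 kept ones, 23 had a mean signal under 150, and the median was 315.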
